A study of Mus musculus with 6 samples.

Results

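Genes for membrane carriers of organic anions, organic cations and bile constituents were compared between hepatocytes of XCON mice and XCKO mice. The members were all rows of the count table whose symbol begins with Slco, Slc22a, Slc10a, Slc51, Slc47a, Abcb, Abcc or Abcg and a member number or letter, which gave 78 of 54532 genes in 8 families. XCON mice were Xbp1 FL/FL, with loxP-flanked alleles of the transcription factor gene Xbp1, and XCKO mice were Xbp1ΔHep, in which Xbp1 was deleted in hepatocytes. All animals had a C57BL/6 background, were 32 to 34 weeks old and had eaten a high-fat diet for 26 weeks. Primary hepatocytes were isolated from each animal group, and bulk RNA was sequenced in 3 libraries per group. The sources used here name neither the promoter behind the recombinase nor the deleted exons, and they do not say that each library came from a different mouse. The p-values therefore measure the spread between these libraries.

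Hepatocytes take up bile acids, bilirubin, drugs and cations from sinusoidal blood and pass them into bile or back into blood. Uptake across the sinusoidal membrane runs through the sodium-dependent bile acid carrier NTCP (Slc10a1), the organic anion transporting polypeptides (OATPs, Slco genes) and the organic cation and anion transporters of the Slc22a family. Export into the canaliculus depends mainly on ATP-binding cassette (ABC) pumps, among them the bile salt pump BSEP (Abcb11), the phospholipid floppase MDR2 (Abcb4), the conjugate pump MRP2 (Abcc2) and the sterol exporter formed by Abcg5 and Abcg8. Other pumps, such as MRP3 (Abcc3), return conjugates to the blood.

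Total counts ranged from 23919355 to 27240079 per library. Xbp1 itself fell in XCKO, with 171, 294 and 319 CPM (counts scaled to the size of each library) in XCON 1, 2 and 3 against 59.0, 39.3 and 67.4 CPM in XCKO 1, 2 and 3. XCON 1 stood apart in its mitochondrial share of counts, 22.8%, against 8.99% to 13.1% in the other libraries. The label hepatocyte fitted the markers: 9 hepatocyte markers summed to 65911 to 89857 CPM in XCON and 90318 to 124652 CPM in XCKO, 1 of them past the test and higher (Asgr1). Macrophage markers (10 genes) summed to 1069 to 2058 CPM in XCON and 366 to 987 CPM in XCKO, stellate cell markers (10 genes) to 296 to 610 and 119 to 300 CPM, and cholangiocyte markers (10 genes) to 279 to 606 and 97.2 to 172 CPM. Of these, 1 macrophage gene and 4 stellate genes passed as lower. Of 8 tested cholangiocyte genes 0 passed edgeR's test, 7 were lower at an unadjusted p under 0.05 and DESeq2 called 3. Endothelial markers summed to 618 to 634 CPM in XCON and 464 to 952 CPM in XCKO. The Kupffer cell marker Clec4f had 60.7 CPM or more and the bile duct marker Krt19 0.270 to 10.9 CPM. Erythroid markers (5 genes) summed to 42.1 to 70.0 CPM in XCON and to 405, 77.4 and 917 CPM in XCKO 1, 2 and 3. Fewer cells of a type and less RNA per cell cannot be told apart in bulk RNA. All libraries carried Y-linked transcripts, and Xist did not exceed 0.231 CPM.

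Of the 78 members, 52 had enough reads to be tested, and 9 passed an adjusted p of 0.05, 7 of them higher and 2 lower in XCKO. These are 17.3% of the tested members, beside 9.27% of all 14873 genes tested, 5.21% higher and 4.05% lower. The higher genes were Slc22a29, Slc22a27, Abcg8, Slc22a5, Slc47a1, Slco1a4 and Slc22a18, and the lower ones Abcc5 and Abcc12. The number of higher members was 4, 5 and 1 without XCON 1, 2 and 3, and 2, 3 and 2 without XCKO 1, 2 and 3. That of lower members was 2 without XCKO 2 and 1 in the other 5 of these fits. Only Slc22a27 and Abcc5 passed in all 6 of these fits. Beside these changes the hepatocyte marker sum was higher in every XCKO library, the macrophage and cholangiocyte sums were lower in every XCKO library, and the stellate sum was lower on average with an overlap between XCKO 1 and XCON 1. The part of any of them was not tested. Scaling by library totals alone shifted the median of all genes by −0.26 on the log2 scale and gave 2 higher and 6 lower members (2.19% and 13.7% of all genes). With a gene-length correction 7 were higher and 1 lower (4.42% and 2.88% of all genes). Directions given here are relative to scaling by TMM, the trimmed mean of M values.

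Uptake and efflux members were set side by side by textbook direction. Of 34 uptake members, 20 were tested, 4 were higher and 16 did not pass. No uptake member passed as lower in edgeR's test or in DESeq2, and 1 (Slco3a1) was lower at an unadjusted p under 0.05. Of 21 efflux members, 18 were tested, 2 were higher, 2 lower and 14 did not pass. The median log2 fold change was 0.52 over tested uptake members, 0.01 over tested efflux members and −0.05 over all genes tested. With library totals alone these medians were 0.26, −0.25 and −0.31, so the efflux median changed sign. It was also negative, at −0.04, without XCON 3 and without XCKO 1. It rose to 0.24 with at least 5 CPM in 3 libraries, 0.17 with the gene-length correction and 0.20 without XCKO 2. Without XCON 1 the uptake median was 0.32 and the efflux median 0.16, closer together than in the main fit. Among the 8 tested canalicular efflux genes the median was 0.61, with 6 positive and 2 negative values. Among the 7 basolateral ones it was −0.49, with 2 positive and 5 negative values. The 2 positive ones, Abcc3 and Abcc6, had group means of 230 CPM or more, and the 5 negative ones of 42.4 CPM or less. The part of abundance in this contrast was not tested. The difference between uptake and efflux was not tested, since the members are not replicates.

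**Figure D1:**
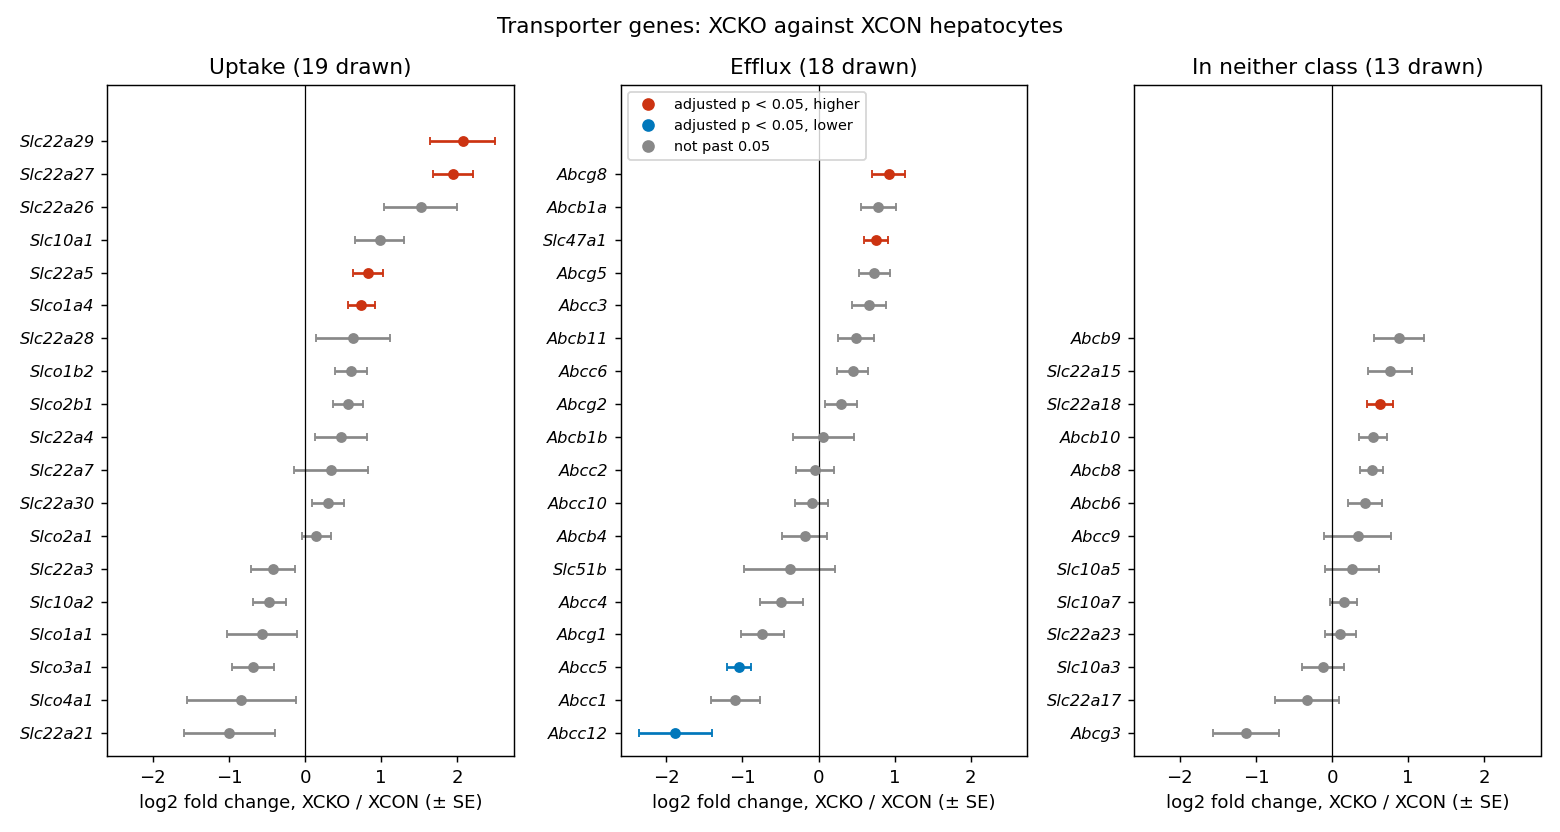
Each point is the log2 fold change of 1 tested transporter gene, XCKO over XCON, with its standard error, in separate panels for uptake, efflux and unclassed genes. Red points passed an adjusted p of 0.05 as higher (7 genes), blue points as lower (2 genes), and grey points did not pass; 50 of the 52 tested genes are drawn.

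Groups that did not overlap were more frequent than calls. In 19 of the 52 tested members every XCKO library lay above every XCON library, and in 6 every XCKO library lay below, beside 17.6% and 18.1% of all tested genes. Abundance moved with this: among the 28 members with a mean of at least 20 CPM, a split chosen with the values known, XCKO lay above in 13 (46.4%) and below in 1, beside 28.1% above and 14.5% below among all genes at that level. That 1 was the cholesterol exporter gene Abcg1. The 10 uptake genes at that level had a median of 0.58 and the 11 efflux genes one of 0.45, whereas the tested genes under it had medians of 0.03 (uptake, 10 genes) and −0.49 (efflux, 7 genes). All 5449 tested genes at that level had a median of 0.10. Of these 5449, 557 passed as higher and 181 as lower, beside 5 higher and 0 lower of the 28 members.

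The main sinusoidal uptake genes lay higher in every XCKO library without passing the test. Slco1b2, the main OATP of mouse liver, which carries bile acids and bilirubin conjugates, had 623, 941 and 755 CPM in XCON 1, 2 and 3 and 1307, 1162 and 1042 CPM in XCKO 1, 2 and 3. The lowest XCKO library exceeded the highest XCON library. Its log2 fold change was 0.60 ± 0.21 (SE, adjusted p = 0.1). Slc10a1, which encodes NTCP, had 114, 282 and 202 CPM in XCON and 368, 321 and 494 CPM in XCKO, again without overlap. Its spread within groups was wide, with XCON 1 the lowest and XCKO 3 the highest, and the log2 fold change of 0.98 ± 0.32 (SE) had an adjusted p of 0.089. Its 95% interval, from 0.24 to 1.72, lay above 0. Slco2b1, an OATP for sulfated steroids, had 115, 183 and 152 CPM in XCON against 239, 224 and 201 CPM in XCKO. The groups did not overlap, and the adjusted p was 0.1.

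**Figure D2:**
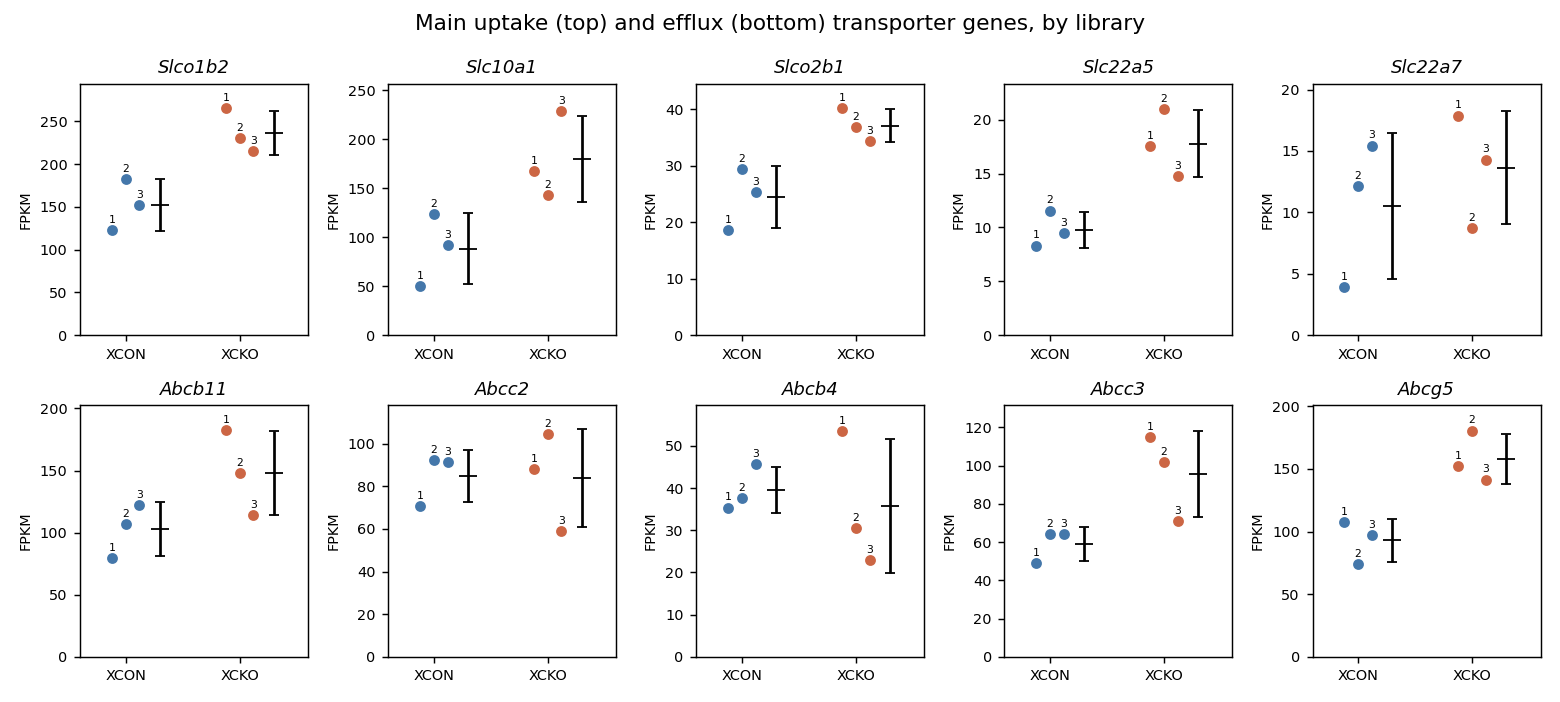
Deposited FPKM values of 5 uptake genes (top) and 5 efflux genes (bottom) are shown for each library (numbered points), with the mean and SD of the 3 libraries per group as black bars; each vertical axis starts at 0. Slco1b2, Slc10a1, Slco2b1, Slc22a5, Abcc3 and Abcg5 had every XCKO library above every XCON library, whereas Slc22a7, Abcb11, Abcc2 and Abcb4 overlapped.

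Of the smaller OATP genes, Slco1a4 passed. Slco1a4 (ENSMUSG00000030237, mm10 chromosome 6, 141805440 to 141856199), which carries bile salts and the cardiac glycoside digoxin, had 42.8, 33.6 and 42.2 CPM in XCON and 57.5, 61.9 and 79.0 CPM in XCKO. It rose from 39.5 ± 5.1 to 66.1 ± 11 CPM (SD, n = 3), or by 0.74 ± 0.17 on the log2 scale (SE, adjusted p = 0.034). XCKO 3 was the highest library, and without it the adjusted p was 0.091. The call held in 2 of the 6 fits that left out a library. Its neighbour Slco1a1, the OATP that is abundant in livers of adult male mice, had 7.50, 18.0 and 10.5 CPM in XCON and 11.0, 3.61 and 9.73 CPM in XCKO. These groups overlapped, with a 95% interval of the log2 fold change from −1.64 to 0.50. The coding sequences of Slco1a4 and Slco1a1 were 86.7% identical over their aligned length, and those of Slco1a4 and Slco1a5, which had 1 read in all libraries together, 89.4%, so reads could be misplaced between them. The prostaglandin transporter gene Slco2a1 differed by 0.15 ± 0.18 (SE). Slco3a1 did not pass, at −0.68 ± 0.28 (SE) and an adjusted p of 0.14, with every XCKO library below every XCON library.

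Carnitine and cation carriers of the Slc22a family were next. Slc22a5 (ENSMUSG00000018900, chromosome 11, 53864542 to 53891660), which encodes the sodium-dependent carnitine transporter OCTN2, had 26.4, 37.1 and 29.2 CPM in XCON and 53.9, 65.8 and 44.7 CPM in XCKO. It rose from 30.9 ± 5.5 to 54.8 ± 11 CPM (SD, n = 3), or by 0.83 ± 0.19 on the log2 scale (SE, adjusted p = 0.033). That call remained without XCON 2 and without XCKO 3, and the largest adjusted p, 0.099, came without XCON 1. Its neighbours on chromosome 11 were scarce: Slc22a4, an ergothioneine carrier, had 1.86 to 5.05 CPM over the 6 libraries and Slc22a21 had 0.259 to 1.28 CPM, and neither passed. The cation transporter gene Slc22a3 had 4.85, 6.86 and 5.07 CPM in XCON and 3.16, 5.78 and 3.59 CPM in XCKO, an overlap.

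The highest fold changes among all members were in a cluster of organic anion transporter genes on chromosome 19. Slc22a27 (ENSMUSG00000067656, 7864388 to 7966027, minus strand) had 7.35, 4.22 and 4.12 CPM in XCON and 23.1, 21.1 and 15.9 CPM in XCKO. It rose by 1.94 ± 0.26 on the log2 scale (SE), adjusted p = 0.0089, and passed whichever library was left out. Slc22a29 (ENSMUSG00000075044, 8160165 to 8218900, minus strand) had 3.96, 1.06 and 1.86 CPM in XCON and 10.5, 9.78 and 8.60 CPM in XCKO. XCON 1 was the highest control library for both genes. For Slc22a29 the log2 fold change was 2.07 ± 0.42 (SE, adjusted p = 0.026), and the call was lost without XCON 3 (0.078), XCKO 1 or XCKO 3.

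The neighbours in the cluster did not pass. Slc22a26 had 0.462, 0.513 and 1.18 CPM in XCON and 1.94, 2.79 and 1.51 CPM in XCKO, which did not overlap, with a log2 fold change of 1.52 ± 0.48 (SE) and an adjusted p of 0.077. Slc22a28 had 0.847, 3.01 and 3.52 CPM in XCON and 2.87, 3.49 and 5.10 CPM in XCKO. Slc22a30, the most abundant gene of the cluster per length (35.2 ± 8.5 FPKM in XCON, SD, n = 3), had 91.9, 153 and 121 CPM in XCON and 136, 176 and 140 CPM in XCKO. Both overlapped between groups, with 95% intervals of the log2 fold change from −0.48 to 1.74 for Slc22a28 and from −0.18 to 0.78 for Slc22a30. The coding sequences of Slc22a27 and Slc22a29 were 97.3% identical over their aligned length and those of Slc22a28 and Slc22a30 98.8%, with 91.7% to 92.4% between the pairs. Reads can be split between such copies in ways the deposited counts do not show, so the counts of single genes in the cluster are uncertain.

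**Figure D3:**
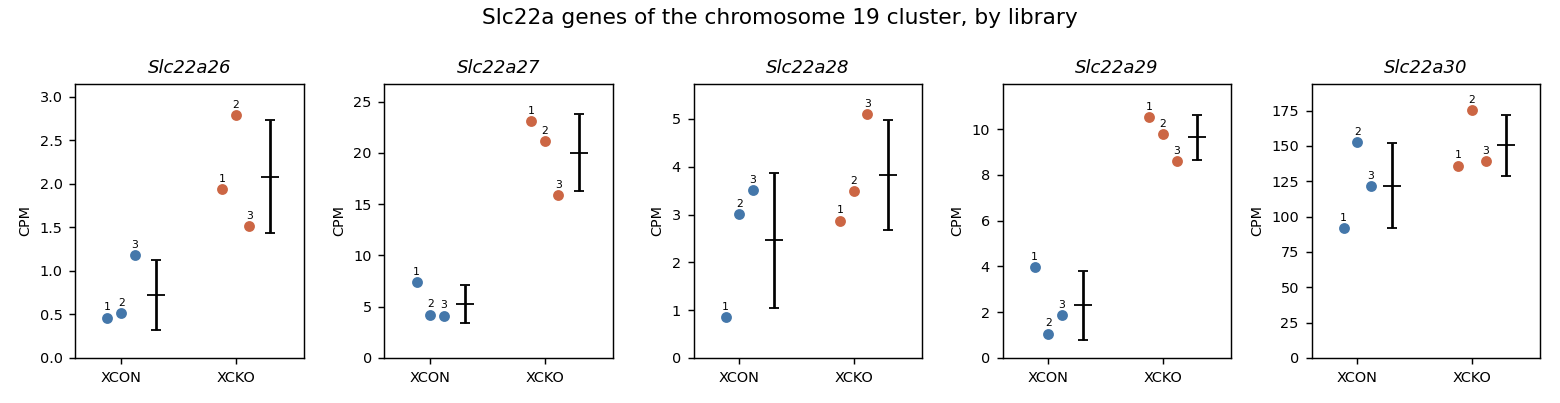
CPM of 5 Slc22a genes of the chromosome 19 cluster in each library (numbered points), with the mean and SD of 3 libraries per group as black bars; axes differ between panels and start at 0. Slc22a26, Slc22a27 and Slc22a29 had all XCKO libraries above all XCON libraries, and Slc22a28 and Slc22a30 overlapped.

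The sequences just upstream of the RefSeq start sites are shown because Slc22a28 and Slc22a30 resemble each other closely in both coding and upstream sequence, whereas Slc22a27 and Slc22a29 do so in coding sequence only. Each is the 150 bases before the start site on GRCm38.p6, read on the minus strand 5′ to 3′, and capitals mark bases that do not align to the same base in Slc22a29 (bases past the end of the Slc22a29 window included).
Slc22a29, chr19:8218901-8219050: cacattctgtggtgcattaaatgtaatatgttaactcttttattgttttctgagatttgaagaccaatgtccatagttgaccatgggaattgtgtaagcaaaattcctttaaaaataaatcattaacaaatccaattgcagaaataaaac
Slc22a27, chr19:7966028-7966177: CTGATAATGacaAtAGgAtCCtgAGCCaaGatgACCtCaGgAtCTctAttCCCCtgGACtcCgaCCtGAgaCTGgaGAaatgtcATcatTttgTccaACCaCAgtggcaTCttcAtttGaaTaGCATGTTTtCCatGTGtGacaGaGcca
Slc22a28, chr19:8131983-8132132: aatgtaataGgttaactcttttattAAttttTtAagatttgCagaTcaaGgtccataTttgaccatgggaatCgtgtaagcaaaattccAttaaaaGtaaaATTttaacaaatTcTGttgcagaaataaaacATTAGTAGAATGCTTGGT
Slc22a30, chr19:8405106-8405255: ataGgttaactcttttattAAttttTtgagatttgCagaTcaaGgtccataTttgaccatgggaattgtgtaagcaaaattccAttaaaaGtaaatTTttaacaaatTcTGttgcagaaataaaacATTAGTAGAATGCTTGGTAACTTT
Over aligned bases the Slc22a29 window was 87.0% identical to that of Slc22a28 and 88.8% to that of Slc22a30, and these were 97.9% identical to each other. The Slc22a27 window was 58.3% identical to that of Slc22a29. The 2 genes that passed, Slc22a27 and Slc22a29, thus had closely matching coding sequences and unlike upstream sequences.

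Slc22a7, which encodes the liver organic anion transporter OAT2, had 8.43, 26.6 and 32.6 CPM in XCON and 37.6, 18.7 and 29.5 CPM in XCKO. The ranges overlapped, XCON 1 was the lowest library, and the log2 fold change of 0.34 ± 0.48 (SE) turned to −0.05 without it. Slc10a2, which encodes the apical bile acid transporter ASBT of ileum and bile duct cells, had 63.7, 60.05 and 97.4 CPM in XCON and 64.1, 49.8 and 45.8 CPM in XCKO. These ranges overlapped too, and the adjusted p was 0.19.

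At the canalicular membrane, Abcg8 and Slc47a1 passed as higher. Slc47a1 (ENSMUSG00000010122, chromosome 11, 61343401 to 61378345), which encodes the proton-coupled cation exporter MATE1, had 130, 141 and 129 CPM in XCON and 210, 251 and 213 CPM in XCKO. It rose from 133 ± 6.8 to 225 ± 23 CPM (SD, n = 3), or by 0.76 ± 0.16 on the log2 scale (SE, adjusted p = 0.025). The XCON libraries lay close together. Even so, the adjusted p was 0.051 to 0.065 in the 6 fits that left out a library, above the threshold in each, with log2 fold changes of 0.72 to 0.81.

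Abcg8 (ENSMUSG00000024254, chromosome 17, 84676302 to 84700333), a subunit of the sterol exporter, had 180, 149 and 212 CPM in XCON and 328, 418 and 277 CPM in XCKO. Its log2 fold change was 0.92 ± 0.21 (SE, adjusted p = 0.034), which was 0.053 to 0.087 in the fits without 1 library. The partner subunit gene Abcg5 had 301, 209 and 266 CPM in XCON and 413, 500 and 377 CPM in XCKO. In both genes XCON 2 was the lowest and XCKO 2 the highest library. Abcg5 did not pass, with 0.73 ± 0.20 (SE) and an adjusted p of 0.053. The deposited gene models of Abcg5 and Abcg8 overlap by 6710 bases on opposite strands, and the sources used here do not say whether strand was used in counting, so reads of one could have been assigned to the other.

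A RefSeq start site of Abcg5 (minus strand, 84683011) and one of Abcg8 (plus strand, 84683121) face away from each other across 109 bases. Another RefSeq start of Abcg8 lies at its deposited gene start, within the Abcg5 gene model. The window before that other start was the one used in motif counts. The gap is shown because it separates the facing starts. It is printed on the plus strand of GRCm38.p6, 5′ to 3′, with capitals on a match to TATAAA read on the minus strand.
Abcg5 and Abcg8 gap, chr17:84683012-84683120: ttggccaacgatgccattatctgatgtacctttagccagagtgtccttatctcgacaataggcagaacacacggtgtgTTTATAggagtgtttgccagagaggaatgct
A TATAAA match on either strand was present in 12.4% of all 32841 RefSeq windows of 250 bases before a start, so the match is a description of these letters only.

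The pumps for bile salts, phospholipid and conjugates did not pass. Abcb11, which encodes BSEP, had 421, 575 and 631 CPM in XCON and 938, 777 and 578 CPM in XCKO. XCKO 3 lay within the XCON range, and the log2 fold change was 0.49 ± 0.24 (SE), with a 95% interval from −0.04 to 1.03. Abcc2, which encodes MRP2, had 621, 822 and 785 CPM in XCON and 750, 910 and 495 CPM in XCKO. XCKO 3 was the lowest of all 6, and the log2 fold change of −0.05 ± 0.25 (SE) had a 95% interval from −0.61 to 0.51, which leaves changes in either direction possible. Abcb4, the phospholipid floppase of the canaliculus, had 342, 368 and 431 CPM in XCON and 502, 293 and 212 CPM in XCKO. The XCKO libraries of Abcb4 enclosed the XCON range. Abcg2, the breast cancer resistance protein, had 83.1, 101 and 133 CPM in XCON and 152, 108 and 129 CPM in XCKO, an overlap, with an adjusted p of 0.38.

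The multidrug pump genes were low. Abcb1a had 13.6, 9.31 and 7.34 CPM in XCON and 15.4, 18.98 and 17.7 CPM in XCKO, with no overlap, a log2 fold change of 0.79 ± 0.23 (SE) and an adjusted p of 0.062. It passed in 1 of the 6 fits that left out a library, the one without XCON 1. The largest adjusted p of these fits was 0.15, without XCON 2. Its adjusted p was 0.016 with DESeq2 and 0.14 with library totals alone. Abcb1b, its neighbour, whose coding sequence was 88.1% identical, had 1.22 to 2.66 CPM in XCON and 1.32 to 2.42 CPM in XCKO.

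At the basolateral membrane the genes went both ways. Abcc3, which encodes MRP3, had 288, 381 and 368 CPM in XCON and 654, 592 and 398 CPM in XCKO. XCKO 3 exceeded the highest XCON library only slightly, and the log2 fold change of 0.67 ± 0.23 (SE) had an adjusted p of 0.093. Abcc6, mutated in the calcification disorder pseudoxanthoma elasticum, had 199, 264 and 227 CPM in XCON and 345, 354 and 242 CPM in XCKO. The groups overlapped through XCKO 3, and the adjusted p was 0.18. Abcc4, which encodes MRP4, had 19.01, 11.0 and 8.89 CPM in XCON and 8.99, 10.9 and 7.82 CPM in XCKO, an overlap. Its highest library was XCON 1.

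Abcc5 fell. Abcc5 (ENSMUSG00000022822, chromosome 16, 20331303 to 20426394), which encodes MRP5, an exporter of cyclic nucleotides, had 24.3, 28.5 and 22.9 CPM in XCON and 14.2, 10.9 and 11.7 CPM in XCKO. It went from 25.2 ± 2.9 to 12.2 ± 1.7 CPM (SD, n = 3), a difference of −1.04 ± 0.16 on the log2 scale (SE, adjusted p = 0.012). Every XCKO library was below every XCON library, and the adjusted p was 0.049 or less with any library left out. Abcc12 (ENSMUSG00000036872, chromosome 8, 86482260 to 86580686) had 3.23, 3.04 and 1.62 CPM in XCON and 0.769, 1.01 and 0.346 CPM in XCKO, −1.88 ± 0.47 on the log2 scale (SE, adjusted p = 0.042). It remained past the threshold without XCKO 2 only and reached 0.12 without XCON 1. Abcc1, the pump MRP1 of many cell types, had 11.4, 11.95 and 9.37 CPM in XCON and 5.99, 2.64 and 6.70 CPM in XCKO, without overlap, and an adjusted p of 0.065. Abcg1, which loads cholesterol onto lipoproteins and is prominent in macrophages, had 40.5, 54.6 and 32.2 CPM in XCON and 28.8, 15.95 and 31.6 CPM in XCKO, also without overlap, and an adjusted p of 0.13. For Abcc1 and Abcg1, as for the macrophage, stellate, cholangiocyte and endothelial marker sums, XCKO 2 was the lowest library. The cholangiocyte sum was nearly tied, with 97.2 CPM in XCKO 2 and 101 CPM in XCKO 1. The part of these cell types in the differences was not tested. For Abcc5 XCKO 2 was the lowest as well, by a small margin.

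**Figure D4:**
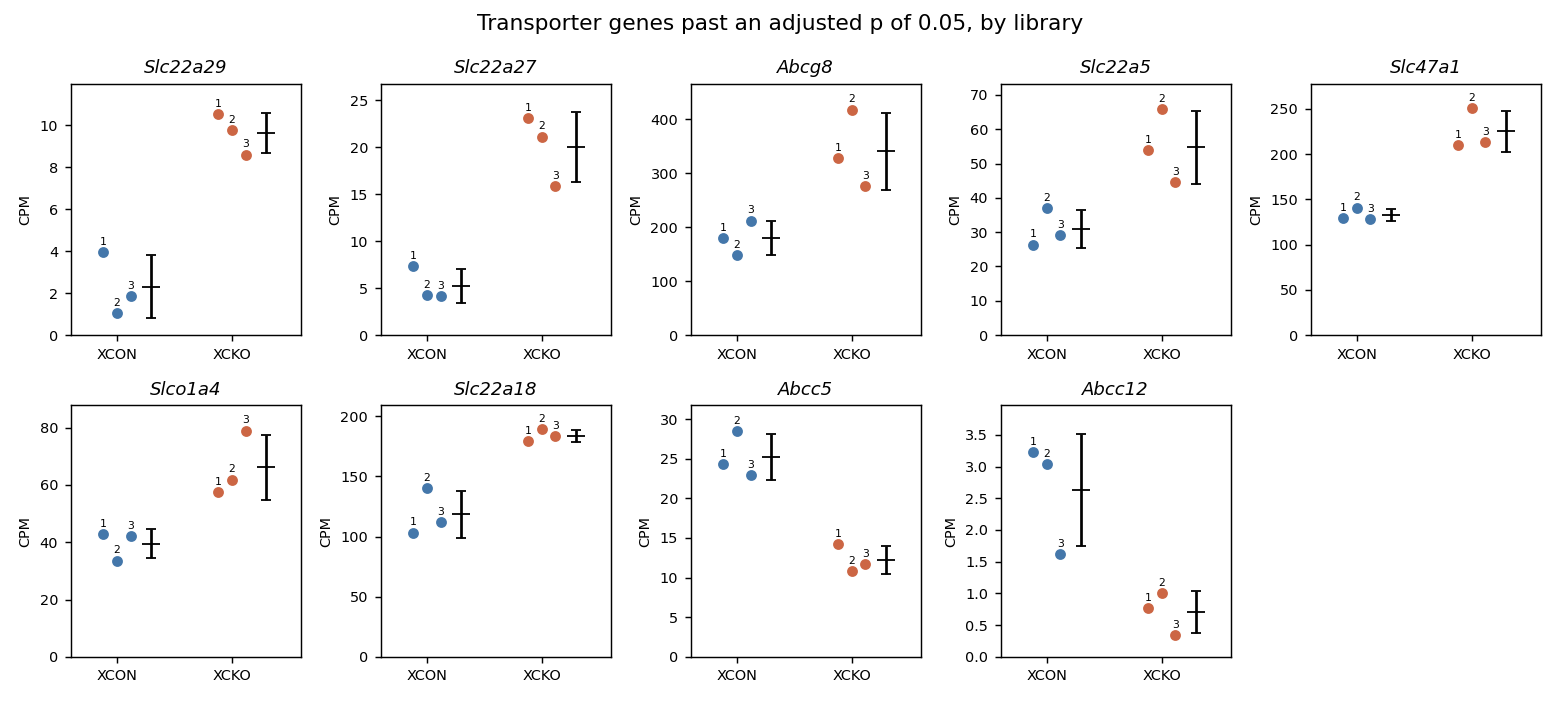
CPM of the 9 transporter genes past an adjusted p of 0.05 in each library (numbered points), with the mean and SD of 3 libraries per group as black bars; axes differ between panels and start at 0. In all 9 genes the groups did not overlap, and Abcc5 and Abcc12 are the ones with XCKO below XCON.

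The bile acid exporter OSTα/OSTβ was close to undetected. Slc51a was untested, with 17 reads in all, and Slc51b had 1.69, 0.55 and 0.879 CPM in XCON and 1.09, 0.31 and 0.994 CPM in XCKO. The gene model of Slc51a overlaps that of Pcyt1a by 567 bases on the other strand, which adds to the uncertainty of its few reads.

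Members placed in neither class included mitochondrial and lysosomal ABC transporters. The mitochondrial genes Abcb6, Abcb8 and Abcb10 and the lysosomal peptide carrier gene Abcb9 had log2 fold changes of 0.43 to 0.88, none past edgeR's test. In all 4 every XCKO library exceeded every XCON library, as in 17.6% of all genes tested. Of the 4, 3 had an unadjusted p under 0.05, and DESeq2 called 2. Over all genes DESeq2 called 2538, and no share was computed at an unadjusted p. Abcb8, a subunit of the mitochondrial potassium channel, had 29.9, 39.3 and 34.9 CPM in XCON and 52.8, 50.5 and 46.4 CPM in XCKO. Its adjusted p was 0.059, and it was 0.044 with the gene-length correction and 0.30 with library totals alone. It passed in no fit that left out a library, with the largest adjusted p, 0.16, without XCON 1. Slc22a18 (ENSMUSG00000000154, chromosome 7, 143473736 to 143499334), an orphan carrier in the imprinted region of distal chromosome 7, had 103, 140 and 112 CPM in XCON and 179, 189 and 184 CPM in XCKO. It rose from 119 ± 19 to 184 ± 5.0 CPM (SD, n = 3), or by 0.63 ± 0.17 on the log2 scale (SE, adjusted p = 0.048). It passed only without XCON 2 among the fits that left out a library and had an adjusted p of 0.12 with the gene-length correction. The potassium channel subunit gene Abcc9 had 59.7 CPM in XCKO 1 against 15.8 to 29.2 CPM elsewhere. Endothelial markers were highest in the same library (952 CPM). Stellate markers there summed to 300 CPM, within the XCON range of 296 to 610 CPM. The part of either cell type in the Abcc9 level was not tested.

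Levels were compared between genes per length, in FPKM as deposited. Among uptake genes in XCON, the levels included Slco1b2 (153 ± 30 FPKM, SD, n = 3), Slc10a1 (88.3 ± 36), Slc22a30 (35.2 ± 8.5) and Slco2b1 (24.5 ± 5.5). Among efflux genes, Abcb11 (103 ± 22), Abcg5 (93.0 ± 17) and Abcc2 (84.8 ± 12) led in XCON within each other's spread. In XCKO the order was Abcg5 (158 ± 20), Abcb11 (148 ± 34), Abcc3 (95.8 ± 22), Abcg8 (90.7 ± 17) and Abcc2 (83.8 ± 23). Neighbours in that order lay within their spreads. Below the first 3 in XCON came Abcc3 (59.1 ± 8.7) and then Abcg8 (46.9 ± 9.2), Abcb4 (39.5 ± 5.4), Abcc6 (39.1 ± 5.2) and Slc47a1 (38.3 ± 1.4), which also overlapped, and then Abcg2 (12.6 ± 3.2) and Abcg1 (10.1 ± 2.5).

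Summed over the members of each class, uptake FPKM was 391, 587 and 511 in XCON and 842, 728 and 829 in XCKO, and efflux FPKM was 493, 533 and 588 in XCON and 837, 835 and 625 in XCKO. All XCKO sums exceeded all XCON sums in both classes. The unclassed members did the same, with 107, 148 and 125 FPKM in XCON and 180, 182 and 174 in XCKO. These FPKM rest on a median-of-ratios library size. As a share of unscaled counts, the 78 members together held 0.488%, 0.628% and 0.613% in XCON. In XCKO they held 0.716%, 0.725% and 0.524%, so these shares overlapped. The uptake sum divided by the efflux sum was 0.793, 1.10 and 0.868 in XCON and 1.01, 0.872 and 1.33 in XCKO, so this ratio overlapped between the groups. The hepatocyte marker sum was higher in all XCKO libraries as well, and its part in these sums was not tested.

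The remaining members were scarce. Of the 26 untested, 10 had no read in any library, which allows up to 0.101 to 0.13 CPM depending on the library (3 counts, for counting error only), 10 more had fewer than 10 reads in all, and none exceeded 1.18 CPM in any library. Among them were the kidney transporter genes Slc22a6, Slc22a8 and Slc22a12, the brain gene Slco1c1 and the testis genes Slco6b1, Slco6c1 and Slco6d1. By family, the tested genes were 15 of 26 in Slc22a (4 higher), 7 of 15 in Slco (1 higher), 9 of 10 in Abcb, 9 of 10 in Abcc (2 lower), 5 of 6 in Abcg (1 higher), 5 of 7 in Slc10a, 1 of 2 in Slc47a (1 higher) and 1 of 2 in Slc51. No Abcb, Slc10a or Slc51 gene passed edgeR's test; 4, 1 and 0 of them had an unadjusted p under 0.05, and DESeq2 called 3, 1 and 0.

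Regulators of these genes mostly did not pass. Of 20 tested, Nfe2l2, which encodes the oxidative stress factor NRF2 and drives several Abcc genes, fell, with 164, 131 and 121 CPM in XCON and 83.1, 87.9 and 72.1 CPM in XCKO and an adjusted p of 0.03. This call held in only 1 of the 6 fits that left out a library. The other 19 did not pass, among them Nr1h4, which encodes the bile acid receptor FXR (0.16 ± 0.24, SE), Nr1i2, which encodes PXR (0.15 ± 0.19), and Nr1i3, which encodes CAR (0.93 ± 0.37). Over the 20 regulators, log2 fold changes ran from −3.28 to 2.16. At an unadjusted p under 0.05, 5 were higher and 2 lower, again with no share over all genes computed. DESeq2 called 3 higher and 2 lower. Of 18 scaffold and companion genes, 2 were higher and 16 did not pass. Pdzk1, the scaffold that holds OATPs at the sinusoidal membrane, had 7.16, 9.82 and 14.5 CPM in XCON and 20.1, 20.9 and 21.7 CPM in XCKO, an adjusted p of 0.036, and Slc2a9, a urate transporter gene, had a log2 fold change of 0.86. Of 15 tested genes of bile acid synthesis and conjugation, 4 were higher (Cyp8b1, Cyp27a1, Hsd17b4 and Cyp46a1) and 11 did not pass. Cyp7a1, the rate-limiting enzyme of that pathway, ranged from 33.8 to 251 CPM in XCON and from 267 to 557 CPM in XCKO and had an adjusted p of 0.19. Slc27a5 is in both of the last lists. In these 3 lists the medians were 0.16, 0.25 and 0.48, beside −0.05 over all genes tested. Genes past the test made up 5%, 11.1% and 26.7% of those tested, beside 9.27% of all genes.

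Promoter windows were available for 61 of the 78 members. The letters ACGTG, the core of sites that XBP1 is known to bind, were searched on both strands in the 250 bases before the start and were found in 7 of the 61 (11.5%), beside 16.6% of all such windows. None of the 8 windows of members past the test held them. The Abcg8 window searched was not the one with the printed gap. The longer TGACGTGG, which contains ACGTG, was found in 1 member, the scarcely expressed Slc22a17, and in 0.563% of all windows. These counts describe letters in short windows and say nothing of binding.

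In the authors' deposited table, 22 of the 65 members with an adjusted p were under 0.05, 18 higher and 4 lower, beside 10.2% of the 24709 genes it covers. All 9 members past edgeR's test were among them. In the authors' deposited table the log2 fold change was 1.02 for Slc10a1 (adjusted p 0.0087) and 0.64 for Slco1b2 (adjusted p 0.017), 2 genes that did not pass edgeR's test. The deposited log2 fold changes of members were nearly identical to those of DESeq2 run here. The 2 are therefore not separate lines of evidence.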

How the data were processed

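The authors deposited raw read counts per Ensembl gene for 6 libraries, with FPKM, group means, log2 ratios and raw and adjusted p-values. Per the submitters' processing notes, Bowtie 0.12.2 was used and mm8 and mm10 were builds, with roles not stated. The sources used here name no read counter and no use of strand. All 78 member identifiers are in GENCODE M21 (mm10), 74 with the same coordinates. The deposited FPKM equalled the count divided by length and by a median-of-ratios library size, and the group means, as deposited, are a signal scaled the same way. The deposited gene length (another quantity, in bases) served the length correction.

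Counts of the 14873 genes kept by filterByExpr were scaled by TMM and tested on all 6 libraries with edgeR 4.0.16 (R 4.3.3; robust quasi-likelihood F test, Benjamini-Hochberg over all genes, threshold 0.05). CPM use TMM-normalized totals. Standard errors were derived from the log2 fold change and its F statistic, and 95% intervals use the test's degrees of freedom. Alternatives used DESeq2 1.42.0, limma-voom (limma 3.58.1), other scalings and filters, a gene-length correction, a replicate block and each library left out. Members, lists and naming rule (all members past 0.05 plus textbook hepatic transporters) were chosen with earlier results of these data known. The marker Tf and the listed Slc22a9 and Slc10a4l matched no row under these symbols. A few genes that enter the counts, medians and sums are not reported here by name. Upstream sequences are from RefSeq (GRCm38.p6), 1 window per gene, at the start nearest the deposited 5′ end. The printed gap instead runs to the Abcg8 start beside Abcg5. Identities are from global alignments without end gap costs, of GENCODE M21 coding sequences or of upstream windows.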

Additional observations from a re-analysis of the deposited data

How the results depend on the processing

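The numbers of members past 0.05 (7 higher, 2 lower) depended on the setting. With library totals alone 2 were higher and 6 lower (uptake 2 and 1, efflux 0 and 4), of 2358 genes in all. Without a filter on low counts 16 were higher (uptake 7, efflux 5), of 2160 genes, and with at least 5 CPM in 3 libraries 1 was lower, an efflux gene. DESeq2 called 18 higher and 4 lower (uptake 9 and efflux 5 higher), of 2538 genes, the 9 of edgeR among them. The gene-length correction left 1 lower, an efflux gene, and Abcc12 and Slc22a18 no longer passed. Leaving out 1 library gave 309 to 810 genes, 1 to 5 members higher and 1 to 2 lower, with 1 to 3 uptake and 0 to 1 efflux members higher and 1 to 2 efflux members lower. The fewest higher members came without XCON 3 and the fewest genes without XCKO 3. With the replicate number as a block, 322 genes passed, 1 member was higher (Slc22a27, an uptake gene, with 0 efflux genes) and 1 lower (Abcc5, an efflux gene). Libraries that share a number deviated together with correlations of 0.06, 0.08 and −0.17, which does not show a pairing, so the calls lost there are not read as weaker effects.

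Some members that did not pass changed sign. Abcb1b went to −0.21 with library totals alone and ranged from −0.17 to 0.39 with 1 library left out, where it was −0.0046 without XCKO 1 and −0.08 without XCKO 3. Abcc2 was 0.11 with the gene-length correction and ranged from −0.21 to 0.18 with 1 library left out (0.04 without XCON 2). In the same fits Abcb4 ranged from −0.58 to 0.085 (without XCKO 3), Slc22a7 from −0.046 (without XCON 1) to 0.71 and Slc51b from −0.68 to 0.16 (0.06 without XCKO 2). The cause was not tested. Over the members past the threshold and the textbook transporters of the naming rule, 284 values kept direction and side of the threshold, 49 called values no longer passed, 17 uncalled ones passed and 11 changed sign.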

Other observations

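Slc10a2, the apical bile acid transporter gene of bile duct cells and ileum, was present at 45.8 to 97.4 CPM in every library. The bile duct keratin gene Krt19, 1 of the 10 bile duct markers, had 0.270 to 10.9 CPM. These values are not corrected for gene length. The 10 bile duct cell markers together, most of it Spp1, summed to 606, 279 and 285 CPM in XCON and to 101, 97.2 and 172 CPM in XCKO, while Slc10a2 had 63.7, 60.05 and 97.4 CPM in XCON and 64.1, 49.8 and 45.8 CPM in XCKO. The sums did not overlap between groups and Slc10a2 did. Slc10a2 was chosen here after its values were seen, and the part of bile duct cells in its level was not tested.

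Within-library ratios of FPKM do not depend on scaling. The ratio of Abcc3 to Abcc2, the basolateral and canalicular conjugate pumps, was 0.694, 0.693 and 0.702 in XCON and 1.30, 0.974 and 1.20 in XCKO, so the groups did not overlap although neither gene passed alone. It was 1 of 6 ratios computed with the levels known, and no test was made. The ratio of Slco1b2 to Abcc2 was 1.74, 1.98 and 1.66 in XCON and 3.02, 2.21 and 3.64 in XCKO, also without overlap, whereas Slco1b2 to Abcb11 overlapped (1.25 to 1.71 and 1.46 to 1.88). Abcg8 to Abcg5 lay between 0.433 and 0.578 in XCON libraries and between 0.531 and 0.605 in XCKO libraries. The Slc22a29 to Slc22a28 ratio reached 4.13 in XCON 1, where Slc22a28 had 22 reads. It was 0.312 in XCON 2, 0.466 in XCON 3 and between 1.49 and 3.23 in XCKO libraries. Slco1a4 to Slco1a1 was 1.54 to 4.69 in XCON and 4.31 to 14.1 in XCKO, an overlap.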
